A study of Mus musculus with 6 samples.

Results

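Epithelial keratins were examined in organoids of mouse pancreatic tumours that had kept or lost the wild-type Trp53 allele. The genes were given by name as Krt7, Krt8, Krt18, Krt19, Krt20, Krt23, Krt17 and Krt80, and all 8 were found by symbol among the 53379 genes of the deposited tables. The organoids came from tumours of engineered mice and were kept in matrigel domes, and the strain was C57/Bl6. In every library the genotype includes Pdx1-Cre, in which the promoter of a pancreatic transcription factor drives the recombinase. The heterozygous libraries (n = 3) carry Trp53LSLR172H/+, with the mutant allele beside a wild-type one. The loss of heterozygosity (LOH) libraries (n = 3) carry Trp53LSLR172H/-. Lines 6, 23 and 34 each gave 1 library of each genotype, so each line is a single culture per genotype and the lines are the replicates. The sample descriptions of the LOH libraries also carry a suffix whose meaning no label states, and whatever it marks cannot be told apart from genotype. No age or sex of the mice was used here.

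Keratins are the intermediate filament proteins of epithelial cells. A filament is built from pairs of an acidic type I chain and a basic type II chain, so cells make members of both classes, and a chain without a partner is degraded. Krt8 (type II) and Krt18 (type I) are the basic pair of simple epithelia. Krt7 and Krt19 are added in ducts, including those of the pancreas. Krt20 is a type I keratin best known from the surface cells of the intestine and stomach and from the urothelium. Krt17 is a type I keratin of basal and stressed epithelia, and it is used as a marker of basal-like pancreatic cancer. The question was which of these chains differ in RNA level once the wild-type Trp53 allele is lost.

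The libraries held 13680458 to 27917277 expected counts each. Trp53 had 76.3 to 86.5 CPM, counts scaled to a common library size by the TMM method, in the heterozygous and 47.4 to 73.5 CPM in the LOH libraries (log2 fold change -0.47, SE 0.22, adjusted p 0.227 by edgeR). Counts per gene cannot show which Trp53 allele was read. Epithelial markers were present, since all 6 of Epcam, Cdh1, Cldn4, Cldn7, Esrp1 and Elf3 reached 1 TPM, the length-corrected level that sums to the same total in every library. None of the 7 fibroblast markers or of the 5 endocrine markers reached 1 TPM in any library. Of 6 acinar markers 1 reached it, and of 4 endothelial markers 0. Of 6 leukocyte markers only Cd68 reached it, and of 4 mesothelial markers only Msln, while the mesothelial factor Wt1 had at most 3 counts. Fewer cells of a type and less RNA per cell cannot be told apart in these bulk libraries.

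Levels can be compared between keratins in TPM, which corrects for transcript length. In all 3 heterozygous libraries the order was Krt18, Krt8, Krt19, Krt7, Krt23, Krt80, Krt20 and Krt17, from high to low. Over the 6 libraries Krt18 had 1293 ± 334 TPM, Krt19 952.5 ± 478 TPM, Krt8 931 ± 219.9 TPM and Krt7 467 ± 244.5 TPM (SD, n = 6). Krt8 exceeded Krt7 in 6 of 6 libraries. Krt18 exceeded Krt19 in only 4 of 6, and Krt19 exceeded Krt8 in 2 of 6. By TPM of the whole gene, Krt19 was the highest of the 3 only in LOH lines 6 and 34. Their order was thus fixed in the heterozygous but not in the LOH libraries. The SD over 6 libraries spans both genotypes. Far below lay Krt23 at 53.1 ± 24.8 TPM, Krt20 at 21.9 ± 18.5 TPM and Krt80 at 8.25 ± 2.33 TPM (SD, n = 6). Krt23 exceeded Krt20 in 5 of 6 libraries. Krt20 lay below Krt80 in each heterozygous library and above it in each LOH library. Krt17 had 0, 8 and 3 counts in heterozygous lines 6, 23 and 34 and 0, 0 and 10 counts in the LOH libraries. It reached at most 0.44 TPM, was too low to be tested, and is given no fold change, since a count of 0 allows up to 3 counts.

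**Figure D1:**
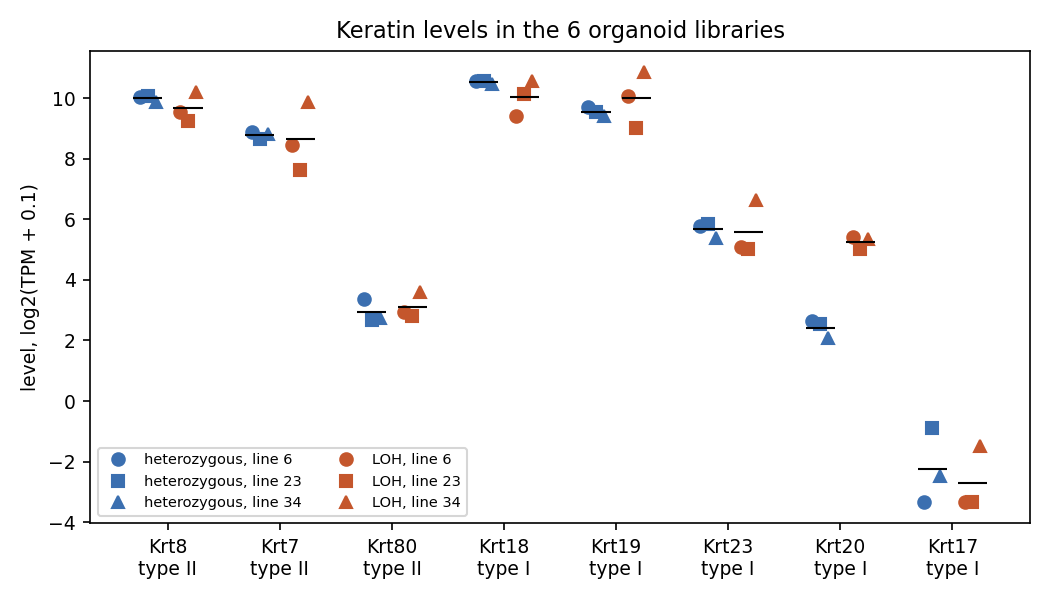
Level of each keratin in each library as log2(TPM + 0.1), with heterozygous libraries in blue, LOH libraries in orange, a symbol for each organoid line and a black bar at the mean of each group (n = 3). The groups separate for Krt20, at 4.09 to 6.16 TPM against 31.97 to 42.2 TPM, and overlap for the other 7 keratins.

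Of the 7 keratins tested, 1 passed the test for a difference between the genotypes, and that was Krt20. Its RNA was about 9.52-fold higher in the LOH libraries. In the same edgeR quasi-likelihood test 5.21% of all 14537 tested genes passed a Benjamini-Hochberg adjusted p of 0.05, and 3.55% passed and were higher. Krt20 had 255, 132 and 200 counts in heterozygous lines 6, 23 and 34, and 1361, 1744 and 1980 counts in the LOH libraries. These correspond to 8.51, 9.79 and 6.68 CPM against 79.2, 65.8 and 92.2 CPM. Every LOH library lay above every heterozygous one, and all 3 lines moved up. The groups did not overlap, which was the case for 32.8% of all tested genes. Group means were 8.33 ± 1.57 and 79.1 ± 13.2 CPM (SD, 3 libraries each). On the log2 scale the fold change was 3.25 (SE 0.24, adjusted p 0.00669 by edgeR), and a fit that takes each line as a block gave 3.25 again (SE 0.31, adjusted p 0.0318 by edgeR). In the lines the log2 ratios of CPM were 3.21, 2.74 and 3.77.

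The size of the Krt20 difference held when libraries were left out, and the call held in only part of these fits. Without LOH line 6, 23 or 34 the edgeR adjusted p was 0.0123, 0.0147 and 0.0107. Without both libraries of line 6 the edgeR adjusted p was 0.0386. The call was lost in the other fits of this kind. Without heterozygous line 6, 23 or 34 the log2 fold change was 3.24, 3.37 and 3.11, with edgeR adjusted p-values of 0.0674, 0.0735 and 0.065. Those 3 fits called 0 of all genes with edgeR, where 2272 to 2966 genes had an unadjusted p under 0.05. Without both libraries of line 23 or of line 34 it was 3.49 and 2.98 (edgeR adjusted p 0.143 and 0.0701). Over 19 alternatives the log2 fold change of Krt20 ran from 2.64 to 3.49 and its adjusted p from 1.17e-27, in DESeq2, to 0.143.

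Krt20 (ENSMUSG00000035775.2; chromosome 11, 99428403 to 99438150, minus strand, GRCm38) lies in the type I keratin cluster, beside Krt23 (ENSMUSG00000006777.7; chromosome 11, 99477974 to 99493137, minus strand). Krt20 passed the test and Krt23 did not, so their promoters are shown side by side. Each sequence is the 250 bases before the start site that RefSeq gives on GRCm38.p6, 5′ to 3′ on the minus strand, at chr11:99438154-99438403 for Krt20 and chr11:99493121-99493370 for Krt23. Capitals mark TATAAA, the common TATA box letters, and GGAATG or its complement CATTCC, the core that TEAD factors bind.
Krt20: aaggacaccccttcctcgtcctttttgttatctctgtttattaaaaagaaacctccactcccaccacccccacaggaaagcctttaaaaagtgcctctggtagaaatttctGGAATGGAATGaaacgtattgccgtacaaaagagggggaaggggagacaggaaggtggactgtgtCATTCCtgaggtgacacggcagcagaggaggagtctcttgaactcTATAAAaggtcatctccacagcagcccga
Krt23: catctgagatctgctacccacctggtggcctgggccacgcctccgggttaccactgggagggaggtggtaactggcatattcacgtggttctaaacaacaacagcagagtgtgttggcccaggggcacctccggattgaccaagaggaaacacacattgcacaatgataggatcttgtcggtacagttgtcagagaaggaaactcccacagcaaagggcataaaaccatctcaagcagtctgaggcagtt
The Krt20 window holds TATAAA beginning 29 bases before the start, and 12.4% of 32817 promoter windows of this length hold that motif on either strand. It holds 3 matches to GGAATG on both strands together, beginning 139, 134 and 74 bases before the start, the first 2 of which share a base. At least 1 match is found in 12.6% of the windows and 3 or more in 0.0884%. The Krt23 window holds neither set of letters. Both strands were also searched for TGANTCA, the letters of AP-1 sites, which neither window holds and 6.75% of windows do, and for CACCC, the core of KLF sites, held by the Krt20 window with 2 matches, not by that of Krt23, and by 52.0% of windows. GGAATG was chosen after the Krt20 sequence had been seen, and a match is a description of letters, not of binding. Promoters of Krt7, Krt8, Krt18, Krt20 and Krt23 were matched by symbol in RefSeq, and those of Krt17, Krt19 and Krt80 were not.

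Around Krt20, 9 other tested genes overlap the window of 500 kb on either side. Their median log2 fold change was 0.68, against 0.06 over all tested genes. Krt27, Krt10 and Gm11560 were low, at 1.79, 1.21 and 0.69 CPM on average. Top2a (-0.17), Smarce1 (-0.46) and Gm11560 (-0.71) lay below 0. Tns4, a focal adhesion gene named after its values were seen, was the only 1 of the 9 called. The log2 fold change of Tns4 was 2.39 (edgeR adjusted p 0.0383). Of all tested genes 5.21% were called, 3.55% as higher. Krt23 had 60.3, 77.8 and 54.2 CPM in the heterozygous and 50.2, 52.5 and 177 CPM in the LOH cultures of lines 6, 23 and 34. Only LOH line 34 stood above the heterozygous range. Its log2 fold change of 0.54 (SE 0.50, adjusted p 0.527 by edgeR) did not pass, and without LOH line 34 it was -0.32.

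Among the other type I members, Krt19 showed the next largest difference, and it did not pass. Krt19 (ENSMUSG00000020911.14; chromosome 11, 100140810 to 100148665, minus strand), the short keratin of ducts, had 737, 865 and 752 CPM in heterozygous lines 6, 23 and 34. The LOH libraries had 1460.0, 686.0 and 2782 CPM. Lines 6 and 34 were above the heterozygous range after loss, and line 23 was below it. The log2 fold change was 1.07 (SE 0.46, adjusted p 0.204 by edgeR), 1.43 without LOH line 23 (adjusted p 0.0656) and 0.45 without LOH line 34 (adjusted p 0.452). Krt18 (ENSMUSG00000023043.6; chromosome 15, 102028180 to 102032027, plus strand), the partner of Krt8, had 1469, 1808 and 1628 CPM in the heterozygous and 895, 1642 and 2384 CPM in the LOH libraries. LOH line 6 was below the heterozygous range and LOH line 34 above it, and the log2 fold change was 0.005 (SE 0.34, adjusted p 0.996 by edgeR).

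None of the type II members passed. Krt8 (ENSMUSG00000049382.9; chromosome 15, 101996698 to 102004482, minus strand) had 1342, 1708 and 1416 CPM in the heterozygous and 1305, 1153 and 2488 CPM in the LOH cultures of lines 6, 23 and 34. Its log2 fold change was 0.15 (SE 0.32, adjusted p 0.797 by edgeR), and the groups overlapped. A processed pseudogene, Krt8-ps, drew 0.267% to 0.352% as many counts as Krt8, and adding them left its log2 fold change at 0.15. Krt7 (ENSMUSG00000023039.16; chromosome 15, 101411043 to 101430313, plus strand), the type II keratin of ducts, had 723, 781 and 842 CPM in the heterozygous and 831, 477 and 2331 CPM in the LOH libraries. LOH line 34 was 2.77-fold above the highest heterozygous library, while LOH line 23 was below the lowest. Its log2 fold change was 0.63 (SE 0.53, adjusted p 0.485 by edgeR) and -0.26 without LOH line 34.

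Krt80 (ENSMUSG00000037185.8; chromosome 15, 101347444 to 101370162, minus strand), a type II keratin of low level here, had 13.01, 9.87 and 9.71 CPM in heterozygous lines 6, 23 and 34. The LOH libraries had 12.9, 12.9 and 24.5 CPM. Its log2 fold change was 0.63 (SE 0.32, adjusted p 0.267 by edgeR), and it was 0.24 without LOH line 34. The annotation places noncoding genes on the opposite strand of 3 members, Gm671 at Krt7, Gm36026 at Krt8 and Gm35853 at Krt80. The strand setting of the authors' counting is not given in the sources used here, so reads of overlapping genes may be shared.

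**Figure D2:**
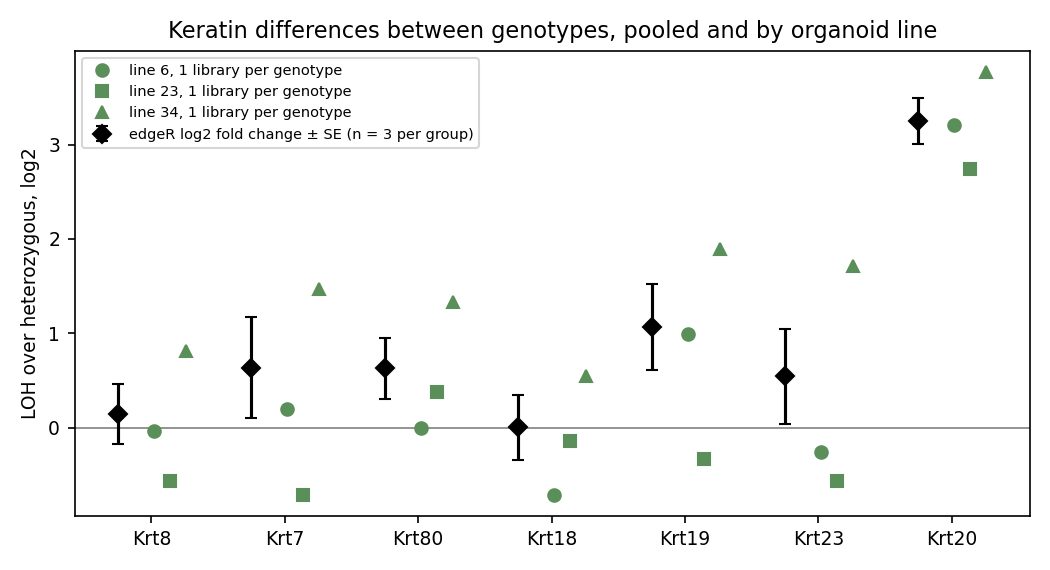
Difference between LOH and heterozygous libraries on the log2 scale for the 7 tested keratins. Black diamonds with bars are the edgeR log2 fold changes ± SE (n = 3 per group), and green symbols are the log2 ratios of CPM in each organoid line, with 1 library per genotype. For Krt20 all 3 lines lie between 2.74 and 3.77, while the other 6 keratins have lines on both sides of 0.

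The organoid lines differed in direction. In line 34 all 7 tested keratins were higher in the LOH library, with a median log2 ratio of 1.47, against 0.06 over all tested genes. In line 6, 3 were higher and 4 lower (median -0.01). In line 23, 2 were higher and 5 lower (median -0.33, against 0.03 over all tested genes). Each line has a single library per genotype, so these are descriptions without a test. LOH line 34 held the highest CPM of the 6 libraries for all 7, whereas 22.3% of all tested genes were highest in that library. In TPM, Krt20 was highest in LOH line 6, at 42.23 TPM against 41.01 TPM in LOH line 34. Krt18 was nearly equal in LOH line 34 and heterozygous line 23, at 1509.83 and 1509.16 TPM. Chromosomes 11 and 15 carry the genes, and their medians were taken over genes that averaged 5 CPM or more. The median log2 ratio in lines 6, 23 and 34 was 0.1, -0.18 and 0.02 on chromosome 11. On chromosome 15 it was 0.32, 0.1 and 0.08. Gene copy number was not tested. Cd68 was also highest in LOH line 34, at 14.7 CPM against 1.70 to 6.95 CPM in the other 5 libraries. The 6 leukocyte markers summed to 1.76 to 2.25 TPM in the heterozygous and 2.67 to 10.8 TPM in the LOH libraries. Most of that sum was Cd68, at 10.76 TPM in LOH line 34. Cd3e, Cd79a and Itgam had 3 counts or fewer, and Ptprc had at most 7. Csf1r averaged 0.26 CPM in the heterozygous and 0.15 CPM in the LOH libraries. The part of these markers in the keratin levels was not tested.

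Spread within the groups differed too, for the keratins as for most tested genes. The SD of log2 CPM was larger among LOH than among heterozygous libraries for 6 of the 7 tested keratins, as it was for 79.1% of all tested genes. For Krt7 it was 0.11 in the heterozygous and 1.16 in the LOH libraries, and for Krt19 0.126 and 1.01. Krt20 was the exception, with 0.277 and 0.243. Thus Krt7 and Krt19 varied more among these LOH than among these heterozygous libraries, and Krt20 did not. The 6 of 7 is near the share of all tested genes, and the difference in spread was not tested.

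The keratin pool can also be read as a composition, which does not depend on library scaling. Together the 8 genes took 97.97% to 99.7% of the TPM of all keratin genes in each library. In the heterozygous libraries Krt18 made up 38.3%, 39.7% and 40.3% of their summed TPM in lines 6, 23 and 34, and in the LOH libraries 23.03%, 44.9% and 26.8%. Krt19 made up 21.3%, 19.7% and 19.1% in the heterozygous and 36.8%, 20.6% and 32.9% in the LOH libraries. Krt19 therefore exceeded Krt18 in LOH lines 6 and 34, by 1.60 and 1.225 times, and in no other library. These values count every transcript of Krt19, noncoding ones included. The coding transcript Krt19-201 alone had 868.92 TPM in LOH line 6, above Krt18 at 678.93 TPM. In LOH line 34 it had 1272.47 TPM, below Krt18 at 1509.83 TPM. The share of Krt8 was 26.4% to 28.2% in heterozygous and 21.1% to 25.4% in LOH libraries, without overlap. The share of Krt20 was 0.116% to 0.157% in heterozygous and 0.729% to 1.43% in LOH libraries, also without overlap. Groups overlapped in the shares of the other 6 members. The 2 of 8 without overlap stand beside 32.8% of all tested genes whose groups did not overlap in CPM. Thus even after its rise Krt20 remained a small part of the keratin RNA.

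**Figure D3:**
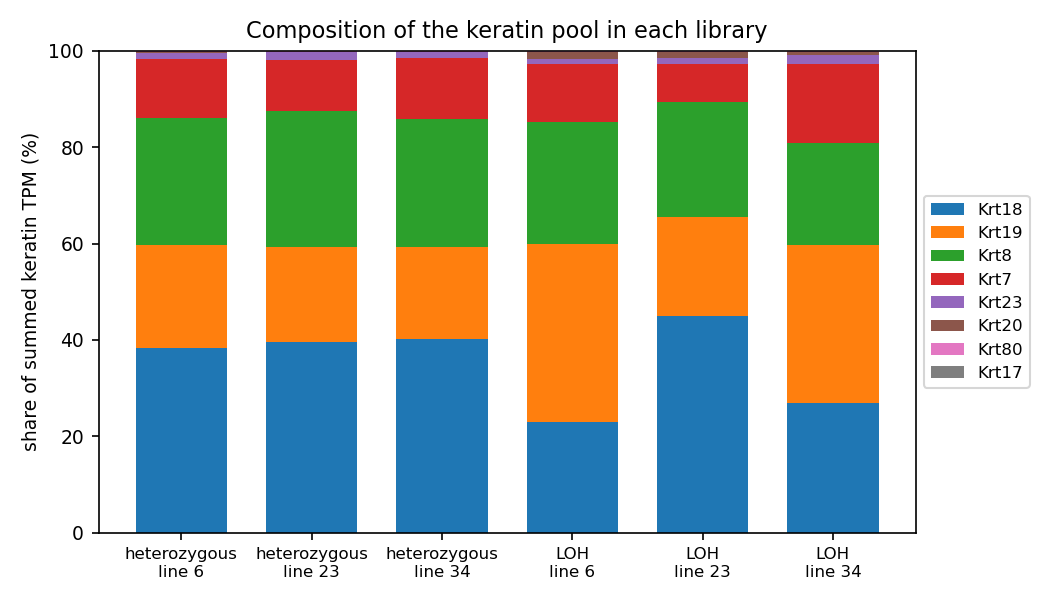
Share of each keratin in the summed TPM of the 8 genes, as stacked bars from 0 to 100% for each library. The 3 heterozygous bars are alike, with Krt18 at 38.3% to 40.3%, while Krt18 takes 23.03% to 44.9% and Krt19 20.6% to 36.8% of the LOH bars.

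The balance of the classes was narrow in the heterozygous libraries. Summed type I over summed type II TPM was 1.58, 1.56 and 1.54 in heterozygous lines 6, 23 and 34. In the LOH libraries it was 1.66, 2.13 and 1.65, so every LOH library lay above every heterozygous one. Such a separation in CPM, in either direction, was seen for 32.8% of all tested genes. The mean log2 ratio was higher by 0.20 in the LOH libraries, and by 0.08 without LOH line 23, whose type II sum of 808 TPM was the lowest of the 6. With every keratin of the files counted, the ratios were 1.51 to 1.57 and 1.58 to 2.08. Summed TPM of the 8 genes was 3936, 3806 and 3521 in the heterozygous and 2948, 2526 and 5625 in the LOH libraries, and the groups overlapped. TPM differences between the groups had a median of -0.35 over all genes tested on log2(TPM + 1), a shift that the sum shares. With TPM rescaled to the genes of the authors' protein-coding table it was 8052, 8261 and 7627 against 7469, 7717 and 15880.0. The mean log2 difference was -0.11 on the deposited scale and 0.28 on the rescaled one. On both, LOH line 34 stood above the other 5 libraries.

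**Figure D4:**
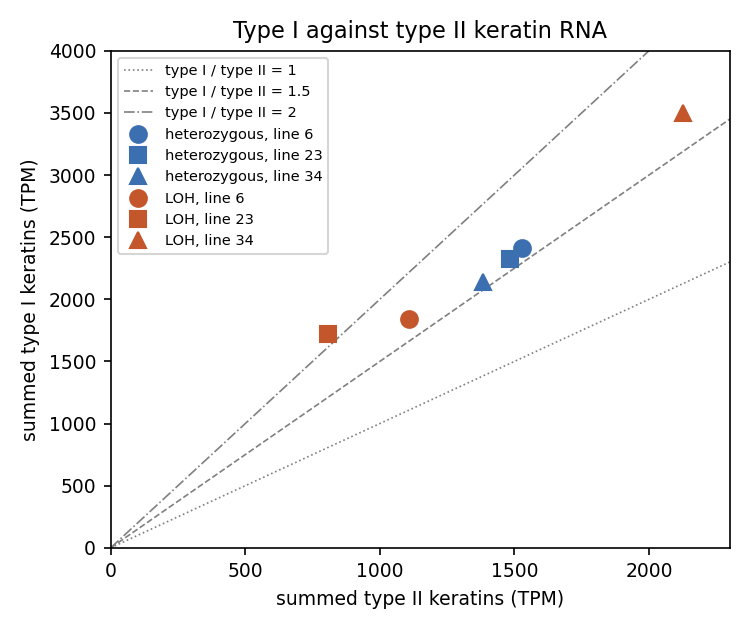
Summed TPM of the type I members (vertical axis) against summed TPM of the type II members (horizontal axis), 1 point per library, with lines of constant ratio. Heterozygous libraries lie together at ratios of 1.54 to 1.58, LOH line 23 at 2.13, and LOH line 34 far out along the ratio of 1.65.

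Transcript tables show which annotated form carries these values. Krt8, Krt18, Krt20, Krt23 and Krt80 have a single annotated transcript in the deposited tables, and so does Krt17. For Krt19 the coding Krt19-201 took 67.7% ± 6.46 of the gene's abundance in heterozygous and 70.3% ± 9.08 in LOH libraries (SD, n = 3 each), and the noncoding Krt19-203 nearly all of the rest. For Krt7 the coding Krt7-204, of only 642 bases, took 50.6% ± 1.06 and 47.8% ± 4.38, and Krt7-201, of 4094 bases, 23.3% ± 3.36 and 24.2% ± 1.54. The noncoding Krt7-202, a retained intron form of 3563 bases, took 24.3% ± 3.34 and 26.2% ± 3.54. The genotypes did not differ beyond this spread. Because short and long forms share a gene, the TPM of Krt7 and of Krt19 depends on how reads were divided among these forms. Counts per kb of the longest coding transcript gave type I to type II ratios of 1.66 to 1.69 in heterozygous and 1.76 to 2.20 in LOH libraries.

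Other keratins were few. Of 10 keratins of stratified and basal epithelia 5 were tested and 0 passed in edgeR. Their median log2 fold change was 1.04, against 0.06 over all tested genes. Krt4, a type II keratin of stratified mucosa, was the most abundant of them at 26.4 TPM. It had 7.64, 13.3 and 50.2 CPM in the heterozygous and 15.8, 34.9 and 241.0 CPM in the LOH cultures of lines 6, 23 and 34. Its libraries overlapped between the groups, and the log2 fold change was 2.03 (SE 1.11, adjusted p 0.299 by edgeR). Of the remaining 36 keratins 4 were tested and 0 passed without the block (median 2.33). Krt79, the most abundant of these at 1.83 TPM, had 0.534, 0.445 and 1.84 CPM against 4.25, 3.85 and 13.74 CPM. Its log2 fold change was 2.91 (SE 0.76, adjusted p 0.0735 by edgeR), and with the block 2.98 (edgeR adjusted p 0.0358), where 1.47% of all tested genes passed, 1.22% higher and 0.248% lower. Of 5 basal or squamous markers 2 reached 1 TPM, Krt6a with at most 1.54 TPM and Krt14 with at most 1.02 TPM, while the basal factor Trp63 had 3 counts or fewer.

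Anchors hold keratin filaments at the membrane. Of 22 listed anchors of desmosomes and hemidesmosomes 16 were tested, 1 rose and 0 fell, with a median log2 fold change of 0.31. All tested genes were called in 5.21% of cases, with a median of 0.06, so this count is near the background. The called gene was Dsc2, a desmosomal cadherin. It had 12.3, 6.01 and 7.04 CPM in the heterozygous and 75.9, 108.5 and 47.3 CPM in the LOH cultures of lines 6, 23 and 34. Every LOH library was above every heterozygous one. The log2 fold change of Dsc2 was 3.19 (SE 0.42, adjusted p 0.0164 by edgeR; 0.0397 with the block), and its adjusted p was 0.0746 to 0.150 without a heterozygous library or without line 23 or line 34. Perp, a desmosomal membrane protein known as a p53 target and the most abundant of the list at 92.8 TPM, had a log2 value of -0.25 for LOH over heterozygous (SE 0.27, adjusted p 0.588 by edgeR).

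Of 15 genes that bind or modify keratins all were tested, 1 rose and 0 fell (median 0.15), again near the 5.21% of all tested genes. Trim29, listed for its link to keratins, had 0.033, 0.148 and 0.300 CPM in the heterozygous and 2.10, 2.605 and 12.85 CPM in the LOH cultures of lines 6, 23 and 34. All LOH libraries were higher, from a base of very few counts. The log2 fold change of Trim29 was 5.13 (SE 1.05, adjusted p 0.0412 by edgeR; 0.0341 with the block), and the adjusted p was 0.0581 without LOH line 23, 0.0526 without line 6 and 0.112 to 0.217 without a heterozygous library or without line 23 or line 34. Nme2, a nucleoside diphosphate kinase and the most abundant of the list at 199 TPM, had -0.70 (SE 0.26, adjusted p 0.148 by edgeR). Among 17 other intermediate filament genes 11 were tested, 0 rose and 1 fell (median -0.45). Of all tested genes 1.66% fell, so a single call carries little weight for the list. The nuclear lamin Lmnb1 fell from 135.5, 120.6 and 117.8 CPM to 73.9, 57.3 and 53.2 CPM, without overlap. Its log2 fold change was -1.02 (SE 0.19, adjusted p 0.0354 by edgeR). The call was lost with the block (0.0939), without LOH line 23 (0.0740) or LOH line 34 (0.0572), and without a heterozygous library or line 23 or line 34 (0.148 to 0.234). Lmna, another nuclear lamin and the most abundant of the list at 115 TPM, had -0.39 (SE 0.23, adjusted p 0.317 by edgeR). Vim, the filament of mesenchymal cells, was named after its values were seen, and had 0.467, 0.445 and 11.35 CPM in the heterozygous and 0.116, 0.340 and 11.27 CPM in the LOH libraries. Both libraries of line 34 were high, and the other 4 were near 0.

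**Figure D5:**
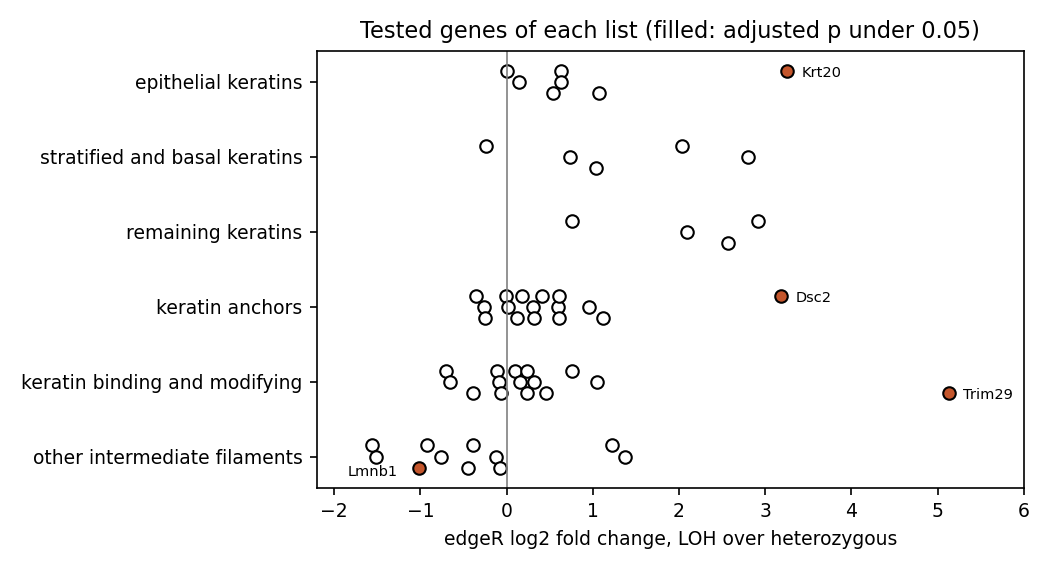
The edgeR log2 fold change, LOH over heterozygous, of every tested gene of the epithelial keratins and of 5 lists of related genes (horizontal axis; 1 point per gene, filled where the adjusted p was under 0.05). Krt20 at 3.25, Dsc2 at 3.19, Trim29 at 5.13 and Lmnb1 at -1.02 are filled.

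Likeness of pattern was measured as Pearson's r of log2 CPM over the 6 libraries, among 10074 genes that averaged 5 CPM or more, as a description that includes the genotype difference. For Krt20 the 3 most alike genes were Ube3b (0.998), Hid1 (0.997) and Nipal3 (0.997). For Krt19 they were Src (0.995), Cldn7 (0.994) and Slc25a24 (0.991). For Krt8 they were Rab6a (0.997), Nptn (0.995) and Ezr (0.995). For Krt7 they were Pin4 (0.995), Cxcl1 (0.991) and Wbp11 (0.991), and for Krt18 Slc1a5 (0.98), Snrk (0.979) and Mad2l2 (0.979). Krt23 had Gnas (0.996), Tfe3 (0.984) and Tom1l1 (0.978), and Krt80 had Samd4 (0.986), Sgms2 (0.983) and Usp6nl (0.982). None of the 7 tested keratins had another keratin among its 3 most alike genes. With 6 libraries and 10074 candidates, that absence says little about whether keratins varied together. Between members r ran from -0.08 for Krt18 and Krt20 to 0.97 for Krt8 and Krt23, with 0.93 for Krt7 and Krt8.

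Duct markers were split in direction. Of 6 listed, 0 rose and 1 fell in the unblocked test, and 3 lay above 0. In that test 3.55% of all tested genes were called higher and 1.66% lower, so single calls carry little weight. The duct lineage factor Onecut1 fell, with a log2 value of -4.33 (SE 0.84, adjusted p 0.0365 by edgeR; 0.106 with the block). The chloride channel Cftr had 16.6, 2.67 and 5.51 CPM in heterozygous lines 6, 23 and 34. The LOH lines had 92.2, 50.2 and 38.9 CPM. Its groups did not overlap, as was the case for 32.8% of all tested genes. The log2 fold change of Cftr was 2.86 (SE 0.69, adjusted p 0.0602 by edgeR). With the block it was 3.14 (edgeR adjusted p 0.0431), where 1.47% of all tested genes passed. The secreted protein Spp1, the most abundant of them at 326 TPM, had -1.08 (SE 0.26, adjusted p 0.0585 by edgeR), and the lineage factors Sox9 and Pdx1 had 0.53 (adjusted p 0.214) and 0.26 (adjusted p 0.718) in edgeR. Of the 6 epithelial markers 1 rose and 0 fell, namely the factor Elf3, with 1.69 (SE 0.20, adjusted p 0.0164 by edgeR). Without a heterozygous library, or without line 23 or line 34, adjusted p-values were 0.110 to 0.185 for Onecut1 and 0.0800 to 0.143 for Elf3, and without LOH line 34 Onecut1 had 0.0747. Their part in the Krt20 difference was not tested. The duct keratins Krt7 and Krt19 did not pass in either direction.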

How the data were processed

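Stranded total RNA libraries were made from 6 organoid cultures, per the labels' protocols. The authors deposited expected counts, which are estimated counts per gene or transcript and need not be whole, and TPM, both under RSEM column names per the file headers. The submitters' processing notes name STAR 2.5.2b, RSEM 1.3.0, DESeq2 1.44.0, FastQC 0.11.5 and build GRCm38.p5, without roles. The deposited tables also hold the percent of a gene's abundance per transcript, and a normalized signal used here only for gene symbols and for the protein-coding gene set (17313 genes). Coordinates are those of GENCODE release M21 on GRCm38.

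Expected counts were rounded, filtered with filterByExpr, scaled by TMM and tested over 14537 genes in edgeR 4.0.16 (R 4.3.3) by its two-sided quasi-likelihood test, at a Benjamini-Hochberg adjusted p of 0.05. The SE comes from the F statistic, as the fold change on the log2 scale over its root. Log2 CPM used a prior count of 2. Nothing says whether the cultures came from separate mice beyond their line numbers, so p-values measure the spread between these libraries. Libraries of a line share its number and pair the samples; deviations from group means correlated at -0.3, 0.01 and 0.29 in lines 6, 23 and 34. The members and lists were chosen with earlier results of these data known, so sums, ratios and shares over the members carry no p-value. The fits were tested on simulated data. There the main fit recovered 64 of 67 changes of 16-fold, 41 of 67 of 4-fold and 8 of 66 of 2-fold. With the block 3 of 66 changes of 2-fold were recovered. A member that did not pass may therefore still differ. Alternatives were other scalings and filters, the block, DESeq2 1.42.0, limma 3.58.1 on log2(TPM + 1) and log2(TPM + 0.1), and libraries left out. Adding Krt8-ps, the longest coding transcript as length, and leaving line 34 out of the sums were chosen after seeing the data. The named genes are the 8 members, list genes that passed (up to 6 per list), the most abundant gene of each list, the 3 genes most alike a member, and markers beside a result. Eppk1 of the anchor list was not analysed here. Another allele that all groups share and the summed duct markers are not reported here. Python 3.11.15, pandas 2.3.3 and matplotlib 3.10.9 were used.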

Additional observations from a re-analysis of the deposited data

Results flagged for a closer look

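The log2 ratios of the organoid lines fell on both sides of 0 for 6 of the 7 tested keratins and for their summed TPM. For Krt80 the only ratio below 0 was -0.01, in line 6. The share of all tested genes with lines on both sides of 0 is not given here. With 1 library of each genotype in a line, no test of the difference between lines could be run. On the log2 scale the gap from the lowest to the highest line was 2.27 for Krt23, 2.22 for Krt19, 2.18 for Krt7, 1.38 for Krt8, 1.34 for Krt80, 1.26 for Krt18 and 1.27 for the summed keratin TPM. Line 34 was the highest in each of these. In lines 6, 23 and 34 the log2 ratios were -0.26, -0.57 and 1.71 for Krt23, 0.99, -0.33 and 1.89 for Krt19, and 0.20, -0.71 and 1.47 for Krt7. They were -0.04, -0.57 and 0.81 for Krt8, -0.01, 0.38 and 1.33 for Krt80, -0.71, -0.14 and 0.55 for Krt18, and -0.42, -0.59 and 0.68 for the sum.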

How the results depend on the processing

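Each library carries weight with 3 against 3. The number of members called was 1 in the main test and ran from 0 to 1 when libraries or lines were left out, and in every other alternative it was 1. All genes called numbered 757 in the main test, 213 with the replicate block, 2249 with DESeq2, 1911 and 1753 with limma on log2(TPM + 1) and log2(TPM + 0.1), 0 to 2449 with single libraries left out, and 1422 without line 6. Limma split its calls into 280 higher and 1631 lower, and 267 and 1486, against 516 and 241. The 0 came without any 1 of the heterozygous libraries and without line 23 or line 34, where edgeR gave 2097 to 2966 genes an unadjusted p under 0.05. Called genes of the 5 lists numbered 3, with 7 in DESeq2, 5 in either limma fit and 0 to 7 with libraries left out. Members whose shares did not overlap numbered 2 of 8, beside 32.8% of all tested genes in CPM, and 2 to 4 with libraries left out. With the organoid line as a block, Lmnb1 and Onecut1 lost their call, and Krt79 and Cftr gained one; the block changed no call of a member.

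Of the members that did not pass, Krt19 and Krt80 stayed above 0 over 19 alternatives, at 0.42 to 1.51 and 0.16 to 0.91. Krt7, Krt8, Krt18 and Krt23 changed sign in some of them. Single libraries left out gave -0.26 to 1.01 for Krt7, -0.28 to 0.35 for Krt8, -0.37 to 0.26 for Krt18 and -0.32 to 0.82 for Krt23. Without LOH line 34 and without both libraries of line 34 the log2 fold change was -0.26 and -0.20 for Krt7, -0.28 and -0.31 for Krt8, -0.37 in both for Krt18, and -0.32 and -0.43 for Krt23. On log2(TPM + 1) and log2(TPM + 0.1), where the medians of all genes were -0.35 and -0.42, it was -0.13 in both for Krt7, -0.32 in both for Krt8, -0.49 in both for Krt18, and -0.09 and -0.10 for Krt23. For Krt18, near 0 in the main test, it was also -0.01 with RLE scaling, -0.03 with upper quartile scaling, -0.03 with no filter, -0.10 with the replicate block, -0.02 with DESeq2, -0.10 without heterozygous line 6 and -0.01 without heterozygous line 34. The cause of these sign changes was not tested. Depth limits Krt17, where a count of 3 was 0.107 to 0.219 CPM of the total counts; floors cover counting error only.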
